A study of Mus musculus with 18 samples.

Results

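The comparison described here set mouse dendritic cells in which an early calcium signal to lipopolysaccharide (LPS) was blocked in either of 2 ways against untreated wild type cells, all under LPS. Its members were 15 of the 18 arrays of the series, namely 5 of wild type cells, 5 of wild type cells given the chelator EGTA and 5 of Cd14-deficient cells. The 10 arrays of EGTA-treated and Cd14-deficient cells were pooled as 1 group, called the inhibited arrays below, with the LPS time as a block. The 3 remaining arrays, 1 per condition, came from cells without LPS and entered only where that is said.

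The cells were dendritic cells grown from the bone marrow of C57BL/6 mice or of Cd14-/- C57BL/6 mice, 6 to 8 weeks old. Marrow was kept for 7 to 10 days with medium conditioned by B16 tumour cells that make GM-CSF, and was used once over 90% of the cells carried CD11c, so what is described are GM-CSF cultures and not dendritic cells taken from tissue. Wild type cells received smooth LPS at 1 µg/ml, alone or with EGTA at 2 mM, for 2, 4, 6, 12 or 24 h. Cd14-deficient cells received smooth LPS for the same times, at a concentration the labels do not state. Cells without LPS were harvested 24 h after plating, and for those titled as EGTA cells the protocol mentions plating alone. Each condition and time was 1 array, and the labels name no separate cultures or animals, so a p-value covers no more than the scatter among these arrays, part or all of which may be technical. Both inhibited arrays of a time were set against the same single wild type array, so anything particular to the 5 wild type arrays cannot be told apart from an effect of inhibition.

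CD14 is a receptor on the cell surface that binds LPS and hands it to the complex of TLR4 and MD-2. In dendritic cells it is also known to open calcium entry through Src family kinases and PLCγ2, which activates calcineurin and the transcription factor NFAT, and it is needed to carry TLR4 into endosomes, where the adaptor TRIF starts the type I interferon response. EGTA binds calcium outside the cell, and other metal ions as well, and leaves CD14 in place. The design rests on the overlap: a gene that depends on calcium entry should be altered in both conditions, whereas one that depends on TRIF should be altered by loss of CD14 alone.

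Cd14 itself was read first, as a check of the labels. On the scale used throughout, the quantile-normalised log2 of intensity plus 16, its level was 12.79 to 13.28 on the 5 wild type arrays and 12.49 to 13.03 on the 5 EGTA arrays. On the 5 Cd14-deficient arrays it was 4.28 to 5.84, which matches the genotype given. The CD11c gene Itgax lay at 11.22 to 12.09 in wild type, 11.73 to 12.08 with EGTA and 11.86 to 12.32 in Cd14-deficient cells, and Cd74, the invariant chain of MHC class II, lay at 13.39 or above on all 15 arrays. Trimmed mean intensities of the 15 arrays ran from 330.5 to 466.5, and RNA integrity was 8.7 and 8.8 for the EGTA arrays of 24 and 12 h against 9.3 to 10 for the rest. In such bulk samples, fewer cells of a type and less RNA per cell cannot be told apart.

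The genes lower in both inhibited conditions were led by the monocyte chemoattractant gene Ccl7, the inducible nitric oxide synthase gene Nos2, the cell cycle gene Rgcc, the neuropeptide gene Nts, the lipid droplet gene Hilpda and the arginase gene Arg1, followed by Penk, Ccl2 and Gadd45g. The genes higher in both were led by the scavenger receptor gene Marco, the adaptor gene Sla and Herpud1, a component of endoplasmic reticulum (ER) protein degradation. Of 6929 genes tested with limma, 409 passed a Benjamini-Hochberg adjusted p of 0.05, which is 5.9% of those tested, with 175 lower (2.53%) and 234 higher (3.38%) on the inhibited arrays. Most differences were small. The median was -0.46 among the genes called lower and 0.34 among those called higher, and 128 of the 175 and 206 of the 234 differed by less than 1.5-fold. Falls of at least 2-fold numbered 12 (0.173%) and rises 5 (0.0722%). The median over all tested genes was 0.02. Every inhibited array lay below the wild type array of its time for 281 genes (4.06%) and above it for 400 (5.77%). Among the called genes this held for 139 of those lower (2.01% of all tested) and 200 of those higher (2.89%).

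The number of calls rested on how the arrays were modelled. When the arrays of a condition were allowed to share a deviation (condition as a random block, within-condition correlation 0.35), 5 genes passed, namely Ccl7, Penk, Atf3, Marco and Herpud1. Of 68 called genes that were followed singly, 25 kept their call whichever array was left out. Leaving out the wild type array of 4, 6, 12 or 24 h left 88, 80, 90 and 181 calls, and leaving out the 4 h Cd14-deficient array left 150 called higher. Without the further scaling between arrays 66 genes passed, 49 lower and 17 higher, and with median centring 351 passed, 197 lower and 154 higher, so that the balance of lower and higher calls depended on the scaling.

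**Figure D1:**
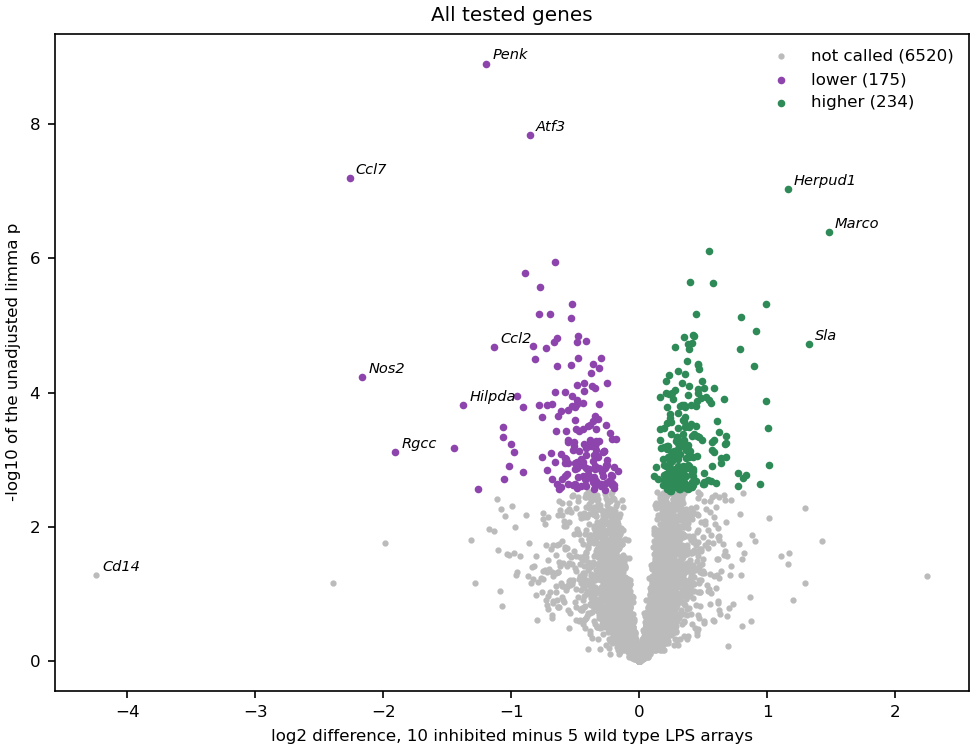
All 6929 tested genes, with the log2 difference of the 10 inhibited arrays from the 5 wild type LPS arrays on the horizontal axis and -log10 of the unadjusted limma p on the vertical axis. The 175 genes called lower are purple and the 234 called higher are green, Cd14 lies far left at -4.24 without passing, and Penk, Atf3 and Ccl7 reach the smallest p among the falls.

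The largest called fall was that of Ccl7, whose product draws monocytes. Its level in wild type cells was 11.23, 12.41, 12.67, 11.31 and 10.73 at 2, 4, 6, 12 and 24 h of LPS. With EGTA it was 10.04, 10.62, 10.55, 8.49 and 8.19, and in Cd14-deficient cells 8.78, 9.85, 10.27, 8.78 and 8.50. The groups did not overlap: the highest inhibited array lay below the lowest wild type array. The difference was -2.26 ± 0.20 (SE), a 4.80-fold loss on this scale (adjusted p = 0.000146, lower on 10 of 10 arrays). Without LPS the levels were 8.22 in wild type, 7.74 with EGTA and 7.47 in Cd14-deficient cells.

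Ccl2, which encodes the main ligand of the monocyte receptor CCR2, lies next to Ccl7 on chromosome 11. Wild type arrays read 12.84, 13.26, 13.35, 13.17 and 13.06 from 2 to 24 h. EGTA arrays read 12.41, 12.45, 12.47, 11.37 and 11.35, and Cd14-deficient arrays 11.57, 11.91, 12.45, 12.08 and 11.94. Again no inhibited array reached the wild type range, and the difference was -1.14 ± 0.17 (adjusted p = 0.00428). The levels in EGTA-treated cells were lowest at 12 and 24 h and those in Cd14-deficient cells at 2 and 4 h. The Cd14-deficient cells were low without LPS too, at 10.07 against 11.06 in wild type and 10.81 with EGTA.

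The RefSeq order of genes around this pair is Ccl2, Ccl7, Ccl11, Ccl12, Ccl8 and Ccl1, each next to the one before, and 5 of these 6 were tested. Ccl8, a further monocyte attractant, fell as well, by 0.98 on the log2 scale (± 0.22, adjusted p = 0.0257), with wild type levels of 6.43 to 7.79 and inhibited levels of 5.66 to 7.22. Ccl12 differed by -1.17 ± 0.39 and Ccl1 by 0.46 ± 0.46, and neither passed (adjusted p of 0.0983 and 0.582). Of 21 tested chemokines 4 were called lower (19.0%, against 2.53% of all genes) and 0 higher, the fourth being Ccl4 at -0.67 ± 0.10 (adjusted p = 0.00428). Their median was -0.41, that of all genes 0.02. Ccl3 differed by -0.41 and Ccl5 by -0.09, and the CXCR3 ligand Cxcl10 by -0.43, with -0.01 under EGTA beside -0.85 in Cd14-deficient cells, and none of the 3 passed.

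Nos2, which makes the nitric oxide of activated phagocytes, had wild type levels of 6.85, 9.56, 9.99, 8.96 and 9.07. EGTA arrays gave 6.75, 8.14, 8.19, 6.83 and 5.50, and Cd14-deficient arrays 4.40, 7.61, 7.99, 5.95 and 5.82. The inhibited arrays overlapped the 2 h wild type array alone, and by 24 h wild type cells stood far above both. The difference was -2.17 ± 0.36 (adjusted p = 0.00773), and the call was lost when the 12 h arrays were left out. Without LPS the levels were 4.17, 4.18 and 4.14, at the floor that the pseudocount sets, where no gap could be seen, and the difference under LPS minus that without LPS did not pass (-2.15 ± 0.85, adjusted p = 0.999). Arg1, whose enzyme competes with nitric oxide synthase for arginine, differed by -1.26 ± 0.34 (adjusted p = 0.0467), by -0.68 with EGTA and -1.84 without CD14, and was already low in Cd14-deficient cells without LPS at 11.29 against 12.79. Its call was lost on leaving out any of 12 of the 15 arrays.

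**Figure D2:**
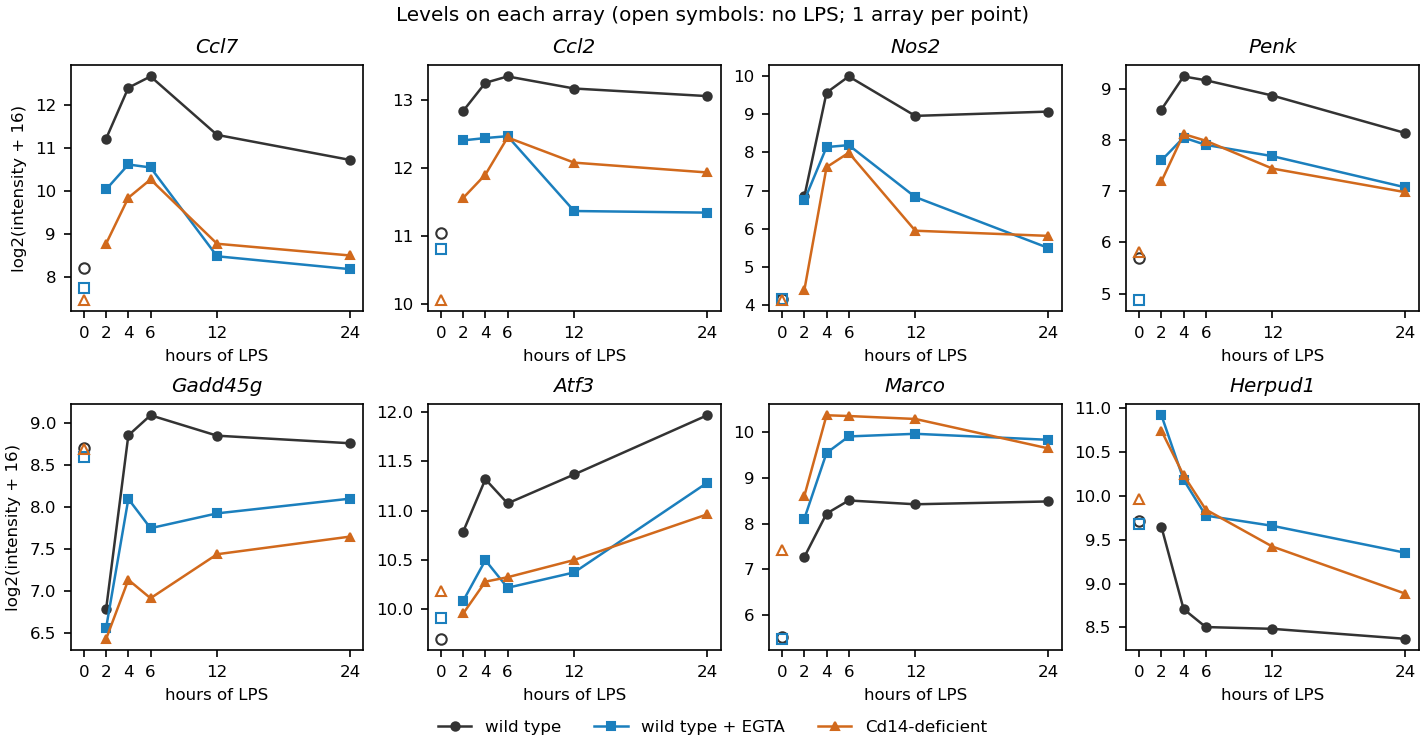
Level, as log2 of intensity plus 16, of 8 genes against hours of LPS, with 1 array per point and open symbols for cells without LPS. Wild type (black) lies above EGTA (blue) and Cd14-deficient (orange) arrays at every LPS time for Ccl7, Ccl2, Nos2, Penk, Gadd45g and Atf3, and below them for Marco and Herpud1.

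Penk and Atf3 had the smallest p of all falls. Penk encodes proenkephalin, the precursor of the enkephalin opioid peptides. Wild type cells read 8.59, 9.24, 9.16, 8.87 and 8.13, EGTA-treated cells 7.60, 8.05, 7.90, 7.68 and 7.07, and Cd14-deficient cells 7.19, 8.11, 7.98, 7.44 and 6.98. The curves of the 2 inhibited conditions ran nearly together about 1 log2 unit below wild type, with a difference of -1.20 ± 0.07 (adjusted p = 8.63e-06) that was -1.19 over 2 to 6 h and -1.20 over 12 and 24 h. Penk passed under each alternative model and scaling that was run and on leaving out any single array or time.

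Atf3, a stress-induced transcription factor that restrains TLR4 target genes, read 10.79, 11.32, 11.07, 11.37 and 11.97 in wild type cells. It read 10.08, 10.50, 10.22, 10.37 and 11.28 with EGTA and 9.95, 10.28, 10.32, 10.50 and 10.96 without CD14. Ranges overlapped across times, but each inhibited array lay below the wild type array of its time, by 0.69 to 1.04. The difference was -0.86 ± 0.07 (adjusted p = 4.95e-05). Without LPS the order was the reverse, with 9.70 in wild type, 9.91 with EGTA and 10.18 without CD14, and the difference under LPS minus that without LPS was -1.20 ± 0.17 (adjusted p = 0.0261).

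Among the other large falls, Nts, the neurotensin precursor, fell by 1.44 on the log2 scale (± 0.32, adjusted p = 0.0242). Its highest level was 8.54 in wild type cells, at 4 h, and it reached at most 7.57 with EGTA and 6.32 without CD14. Rgcc, a cell cycle regulator induced by complement, fell by 1.91 on the log2 scale (± 0.43, adjusted p = 0.0258), and Hilpda, a hypoxia-induced lipid droplet protein, by 1.38 (± 0.26, adjusted p = 0.0111). Cp, the copper-carrying ferroxidase ceruloplasmin, differed by -1.05 ± 0.27 (adjusted p = 0.0403). In Rgcc and Cp the Cd14-deficient cells were low before LPS, at 10.25 against 11.63 and at 5.19 against 7.06, while the EGTA cells were not, at 11.69 and 6.98. U90926, a transcript that read 4.38 without LPS and 12.43 at 24 h in wild type cells, fell by 1.00 on the log2 scale (± 0.22, adjusted p = 0.0232) and reached at most 10.76 with EGTA and 11.59 without CD14. Without the further scaling Rgcc, Nts, Arg1, Gadd45g, Cp and Ccl8 no longer passed. The calls of Rgcc, Nts, Ccl8 and U90926 were lost without the wild type array of 4, 6, 12 or 24 h, and that of Cp without any of 11 arrays.

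**Figure D3:**
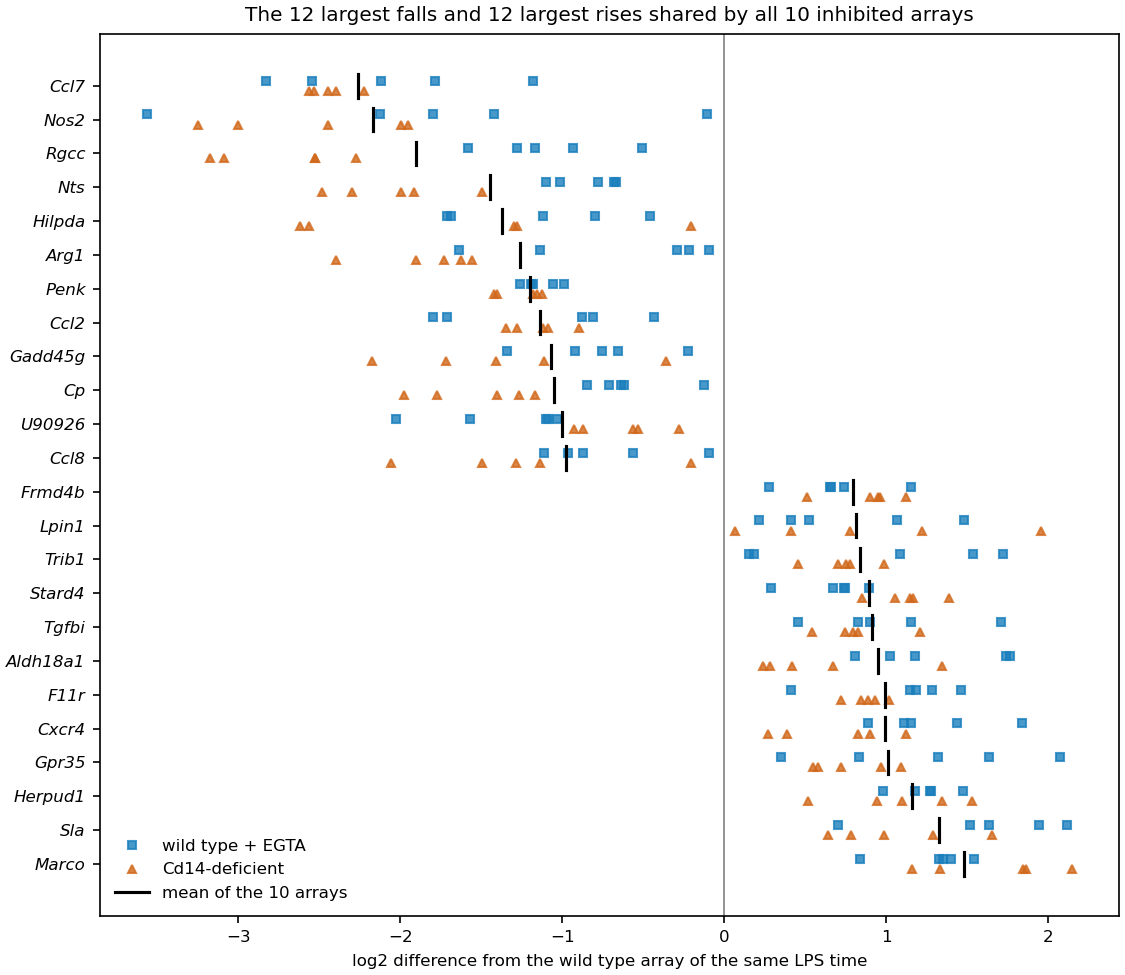
Log2 difference of each inhibited array from the wild type array of the same LPS time for the 12 largest falls and 12 largest rises shared by all 10 arrays, with EGTA as squares, Cd14-deficient as triangles and the mean of the 10 as a bar. The points of Penk, Ccl7 and Herpud1 are mixed, those of Rgcc and Nts are separate with Cd14-deficient arrays lower, and those of U90926 lie lower with EGTA.

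The promoters of these genes are shown because the design asks which falls run through calcium and NFAT. Of the 10 genes whose mean fell by at least 2-fold and that lay below wild type on all 10 arrays, 5 had an entry in the RefSeq promoter table (GRCm38.p6), covering 250 bases before to 50 after the start. These are Rgcc at chr14:79301586-79301885 (minus strand), Nts at chr10:102490369-102490668 (minus strand), Hilpda at chr6:29272238-29272537 (plus strand), Gadd45g at chr13:51846425-51846724 (plus strand) and Cp at chr3:19956804-19957103 (plus strand). Hilpda and Cp have 2 listed starts, of which the first is printed. Capitals mark matches on either strand to the NFAT core GGAAAA, the interferon element (GAAA, any 2 bases, GAAA), the kappaB form (GGGA, any 4 bases, CC) and the AP-1 site TGANTCA, and no 2 matches overlap.
Rgcc: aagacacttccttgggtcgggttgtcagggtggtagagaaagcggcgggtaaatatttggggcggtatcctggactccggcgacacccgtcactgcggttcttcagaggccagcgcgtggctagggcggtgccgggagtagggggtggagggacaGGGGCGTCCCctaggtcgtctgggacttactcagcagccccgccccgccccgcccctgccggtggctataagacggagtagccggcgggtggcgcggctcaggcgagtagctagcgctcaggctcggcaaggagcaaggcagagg
Nts: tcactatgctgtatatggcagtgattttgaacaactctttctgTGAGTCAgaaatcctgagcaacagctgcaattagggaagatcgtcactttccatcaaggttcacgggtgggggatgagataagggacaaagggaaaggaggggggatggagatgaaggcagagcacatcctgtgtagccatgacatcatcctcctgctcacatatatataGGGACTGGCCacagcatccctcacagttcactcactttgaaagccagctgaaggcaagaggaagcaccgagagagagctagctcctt
Hilpda: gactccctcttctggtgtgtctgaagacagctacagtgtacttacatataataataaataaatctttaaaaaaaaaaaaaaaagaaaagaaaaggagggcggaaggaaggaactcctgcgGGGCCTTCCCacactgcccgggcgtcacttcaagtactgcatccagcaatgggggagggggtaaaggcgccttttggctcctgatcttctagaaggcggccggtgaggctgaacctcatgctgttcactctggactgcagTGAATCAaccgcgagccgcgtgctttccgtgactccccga
Gadd45g: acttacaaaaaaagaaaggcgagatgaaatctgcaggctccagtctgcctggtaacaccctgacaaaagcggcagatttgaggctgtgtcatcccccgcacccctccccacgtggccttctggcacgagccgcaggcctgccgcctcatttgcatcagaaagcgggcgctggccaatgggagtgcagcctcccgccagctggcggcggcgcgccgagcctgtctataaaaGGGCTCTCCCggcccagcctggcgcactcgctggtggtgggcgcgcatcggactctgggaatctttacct
Cp: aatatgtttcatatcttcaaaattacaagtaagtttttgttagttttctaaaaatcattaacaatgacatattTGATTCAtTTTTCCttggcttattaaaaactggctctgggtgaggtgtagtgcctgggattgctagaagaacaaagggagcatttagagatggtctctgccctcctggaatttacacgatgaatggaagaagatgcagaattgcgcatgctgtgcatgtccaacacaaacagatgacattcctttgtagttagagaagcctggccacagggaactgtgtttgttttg

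The kappaB letters were in 4 of these 5 promoters, at -95 in Rgcc, -37 in Nts, -130 in Hilpda and -20 in Gadd45g, counted from the start. AP-1 letters were in 3, at -207 in Nts, 11 in Hilpda and -177 in Cp, and the NFAT core was in Cp alone, at -169. In the promoters of all 5711 tested genes with an entry, kappaB letters were in 25.7%, AP-1 in 5.32%, the NFAT core in 21.1% and the interferon element in 3.47%. Over the 143 genes called lower with a promoter the shares were 31.5%, 9.79%, 23.8% and 4.2%, and over the 182 called higher 24.7%, 3.3%, 25.3% and 3.85%. A match is a description of letters in a short window and says nothing of binding.

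Of 17 tested genes known to be controlled by NFAT, 3 were called lower (17.6%, against 2.53% of all genes) and 0 higher, with a median of -0.25. Gadd45g, which binds stress kinases and cyclins and arrests growth, was the largest of these falls. In wild type cells it went from 6.79 at 2 h to 8.85, 9.09, 8.85 and 8.76, whereas EGTA-treated cells read 6.57, 8.10, 7.75, 7.93 and 8.10 and Cd14-deficient cells 6.43, 7.13, 6.92, 7.44 and 7.65. Without LPS the levels were 8.70 in wild type, 8.60 with EGTA and 8.69 in Cd14-deficient cells. Wild type cells thus read lower at 2 h of LPS and later stood near the level without LPS. The groups lay close at 2 h and apart from 4 h on, with a difference of -1.07 ± 0.22 (adjusted p = 0.0174) that no longer passed on leaving out the wild type array of 4, 6 or 12 h.

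The other NFAT targets called lower were Ptgs2, the inducible cyclooxygenase that starts prostaglandin synthesis, at -0.56 ± 0.14 (adjusted p = 0.0375), and Il2ra, a chain of the IL-2 receptor, at -0.52 ± 0.09 (adjusted p = 0.0103). The Ptgs2 call was lost on leaving out any of 12 of the 15 arrays, with values from -0.64 to -0.38. A further probe set of Ptgs2 gave -1.05, and one of Il2ra -0.09. The calcineurin inhibitor gene Rcan1 differed by -0.28 ± 0.11, the early response genes Egr2 by 0.32 and Nr4a1 by 0.16, and none of the 3 passed. A further, dimmer probe set of Rcan1 gave -0.56 and was lower on 10 of 10 arrays.

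Of 6 genes that the study itself is known to tie to this pathway, Gadd45g alone passed (16.7% lower, against 2.53% of all genes). Il2, which dendritic cells make briefly after LPS, was well above its level without LPS at 2 h alone, with 8.81 in wild type, 6.82 with EGTA and 8.52 in Cd14-deficient cells, and was between 4.10 and 5.05 on the 12 later arrays. Its pooled difference of -0.30 ± 0.30 did not pass (adjusted p = 0.571). Ptges, the inducible prostaglandin E synthase, read 6.96, 8.04, 8.10, 9.26 and 10.33 in wild type cells, 7.23, 7.33, 7.59, 8.05 and 8.00 with EGTA, and 7.27, 8.22, 8.72, 9.03 and 8.89 without CD14. It was thus lower in both conditions at 12 and 24 h but higher than wild type without CD14 at 2, 4 and 6 h, and the pooled difference of -0.51 ± 0.31 did not pass (adjusted p = 0.352). Ddit3 at 0.17, Nr4a1 at 0.16 and Tia1 at 0.11 did not pass either. Since these genes come from the study itself, their count is not independent evidence. Of 19 tested genes of calcium entry, calcineurin and NFAT proteins 0 were called by limma, and the median was 0.01.

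The type I interferon response separated the 2 ways of inhibition. Ifnb1, encoding interferon beta, read 10.35 at 2 h in wild type cells, 9.92 with EGTA and 8.16 without CD14, and at 4 h 8.26, 7.35 and 6.20. Its pooled difference of -0.86 ± 0.31 did not pass (adjusted p = 0.126). Of 34 tested interferon response genes 0 were called in the pooled contrast, although the pooled median was -0.44, since the median was -0.04 under EGTA and -0.84 in Cd14-deficient cells and the gap between them enters the error of the pooled fit. In the direct contrast of the inhibited conditions, which uses no wild type level, 30 of the 34 were lower in Cd14-deficient than in EGTA-treated cells and 0 higher. Among all 6929 tested genes 1001 were lower and 1165 higher (31.3% in either direction). Irf7, a driver of the response, differed by -0.98 (adjusted p = 0.00173) and Cmpk2 by -1.17 (adjusted p = 0.00237). The median over the list in Cd14-deficient cells was -1.69 at 2 h and -0.55 to -0.83 later. Of 15 tested genes of interferon beta, its receptors and regulators 1 was called lower (6.67%, against 2.53% of all genes). This was Ifnar2, a chain of the interferon receptor, which fell by 0.43 on the log2 scale (± 0.08, adjusted p = 0.00976), by 0.42 with EGTA and 0.44 without CD14.

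Of 20 tested inflammatory cytokines 1 was called lower (5%, against 2.53% of all genes) and 0 higher. This was Edn1, the precursor of the vasoconstrictor endothelin-1, at -0.91 ± 0.22 (adjusted p = 0.0362), a call lost on leaving out any of 10 of the 15 arrays. Its level reached 11.73 in wild type, 10.82 with EGTA and 10.07 without CD14, and at 24 h the EGTA array, at 8.52, lay above wild type, at 8.19. Tnf differed by -0.59 ± 0.19 (adjusted p = 0.0848), with -0.84 under EGTA and -0.33 without CD14, Il6 by -0.28 and Il12b by -0.23, and none of these passed. The maturation genes Cd40 at -0.23, Cd86 at -0.08 and Ccr7 at 0.19 did not pass.

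Among genes of glycolysis and hypoxia, 3 of 22 tested were called lower (13.6%, against 2.53% of all genes) and 0 higher. These were Vegfa, the endothelial growth factor, at -0.76 ± 0.17 (adjusted p = 0.0281), the hexokinase gene Hk2 at -0.35 ± 0.08 (adjusted p = 0.0273) and Pgam1, an enzyme of lower glycolysis, at -0.20 ± 0.05 (adjusted p = 0.0331). The calls of Vegfa and Hk2 were lost without the wild type array of 4, 6, 12 or 24 h, and that of Pgam1 without any of 8 arrays. Vegfa read 9.77 at 24 h in wild type against 8.49 and 8.18 in the inhibited cells, while at 2 h the levels were 7.93, 7.84 and 8.21. The list's median was -0.21, at -0.20 with EGTA and -0.19 without CD14, and it was -0.40 and -0.43 at 24 h. Ldha at -0.21 and Slc2a1 at -0.53 did not pass (adjusted p of 0.238 and 0.0726).

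**Figure D4:**
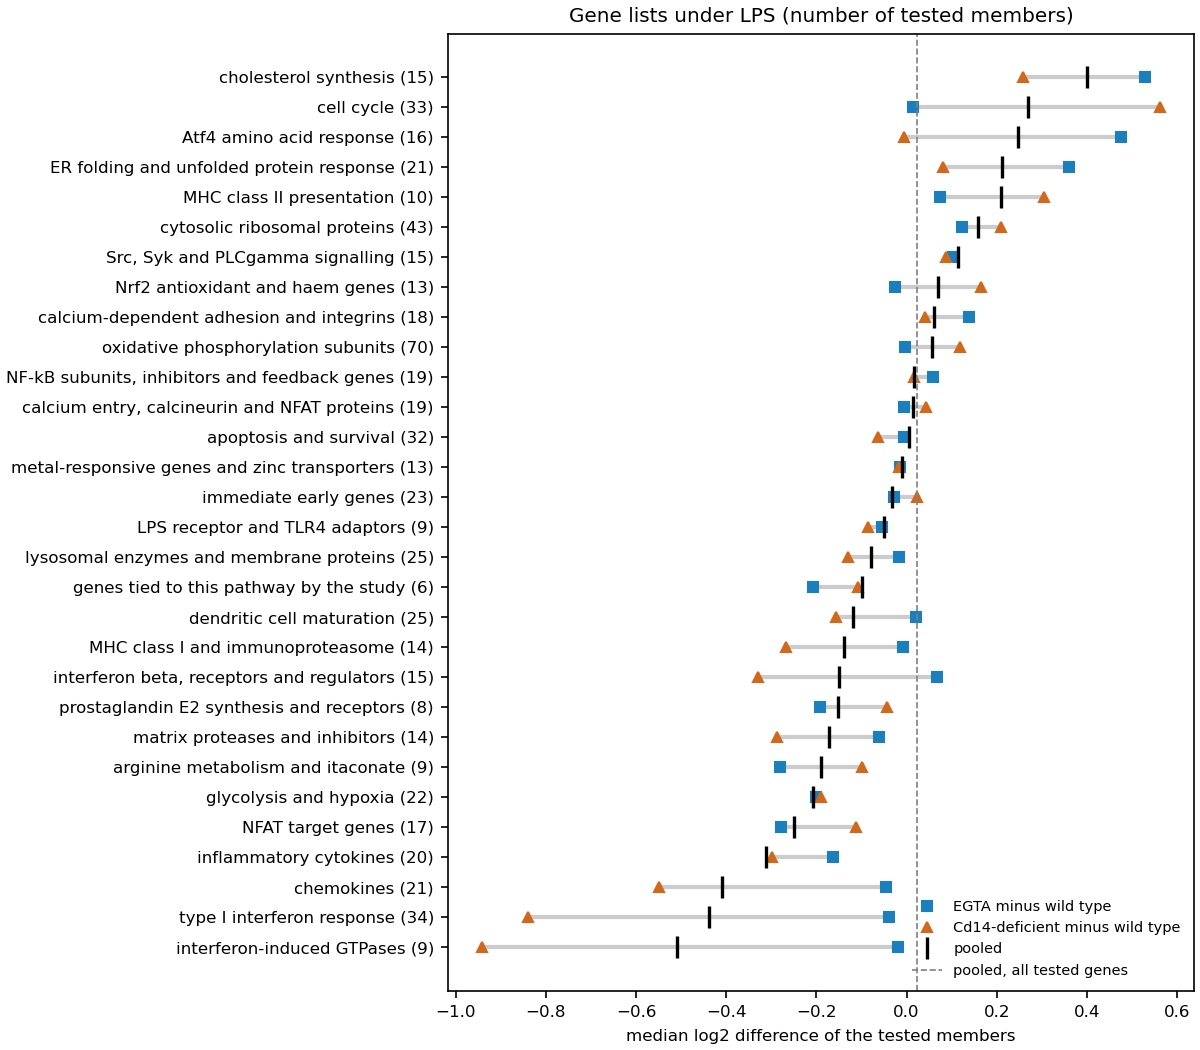
Median log2 difference from wild type of the tested members of each gene list, with EGTA as squares, Cd14-deficient as triangles and the pooled contrast as a bar; the dashed line is the median of all tested genes, 0.02. The squares and triangles lie far apart for the interferon lists and the cell cycle and nearly together for glycolysis and hypoxia, and cholesterol synthesis lies to the right in both.

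The rises were led by Marco, a scavenger receptor that takes up bacteria and particles. Wild type arrays read 7.27, 8.22, 8.51, 8.42 and 8.48, EGTA arrays 8.11, 9.54, 9.90, 9.96 and 9.83, and Cd14-deficient arrays 8.61, 10.37, 10.35, 10.29 and 9.64. Except for the 2 h EGTA array every inhibited array lay above all wild type arrays, with a difference of 1.48 ± 0.15 (adjusted p = 0.000555). Without LPS the Cd14-deficient cells stood at 7.43 against 5.53 in wild type and 5.48 with EGTA. Marco was the only 1 of 14 tested macrophage markers called in either direction (7.14% higher, against 3.38% of all genes). The summed level of those markers, in intensity units, was 37903 to 44433 in wild type, 40488 to 46357 with EGTA and 31961 to 41216 without CD14, with the 3 ranges overlapping.

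Sla, which encodes an adaptor that dampens receptor signalling, read 9.28, 7.89, 8.00, 8.77 and 8.37 in wild type cells. It read 9.98, 9.52, 10.11, 10.28 and 10.32 with EGTA and 9.92, 9.18, 9.65, 9.75 and 9.15 without CD14. All EGTA arrays, but not all Cd14-deficient ones, lay above the wild type range, and the difference was 1.33 ± 0.20 (adjusted p = 0.00428). Without LPS the levels were 10.10 in wild type, 10.18 with EGTA and 10.59 without CD14. Cxcr4, the CXCL12 receptor, had a like course, with 10.60 without LPS and 6.99 at 4 h in wild type, 8.43 with EGTA and 7.89 without CD14 at 4 h, and a difference of 0.99 ± 0.18 (adjusted p = 0.011). Gpr35, a G protein-coupled receptor, was higher by 1.01 ± 0.21 (adjusted p = 0.0177).

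Herpud1 read 9.65, 8.71, 8.50, 8.48 and 8.37 in wild type cells, 10.92, 10.19, 9.78, 9.66 and 9.35 with EGTA and 10.74, 10.24, 9.85, 9.42 and 8.89 without CD14. Each inhibited array lay above the wild type array of its time, by 1.16 ± 0.10 (adjusted p = 0.000162), while without LPS the 3 conditions stood at 9.71, 9.69 and 9.96. Its second probe set gave 1.09. The Herpud1 promoter, at chr8:94386179-94386478 (plus strand), is shown because this was the rise with the smallest p, and it holds none of the 4 motifs.
Herpud1: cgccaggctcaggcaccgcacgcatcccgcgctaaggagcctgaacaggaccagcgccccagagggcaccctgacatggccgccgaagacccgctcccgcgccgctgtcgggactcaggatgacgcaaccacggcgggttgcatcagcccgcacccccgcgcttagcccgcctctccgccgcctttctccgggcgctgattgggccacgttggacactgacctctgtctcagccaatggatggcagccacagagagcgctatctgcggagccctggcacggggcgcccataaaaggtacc

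In the list of ER folding and the unfolded protein response, 8 of 21 tested genes were called higher (38.1%, against 3.38% of all genes) and 0 lower, with a median of 0.21. They included Xbp1, the transcription factor of that response, at 0.41 ± 0.06 (adjusted p = 0.00428), and Sec61b, a subunit of the channel through which proteins enter the ER, at 0.40 ± 0.05 (adjusted p = 0.00161). Calr, a calcium-binding chaperone of the ER, rose by 0.22 ± 0.04 (adjusted p = 0.0165), and Creld2, Manf, Sdf2l1 and Dnajc3 by 0.34 to 0.64. The list's median was 0.36 with EGTA and 0.08 without CD14. In the direct contrast 9 of the 21 were lower in Cd14-deficient than in EGTA-treated cells, as were 1001 of all 6929 tested genes. The chaperone Hspa5 differed by 0.38 with EGTA and 0.04 without CD14, and its pooled difference of 0.21 did not pass.

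All 15 tested cholesterol synthesis genes had a pooled difference above 0, as did 55.8% of all tested genes. Of the 15, 4 were called higher (26.7%, against 3.38% of all genes) and 0 lower, and the median was 0.40. The 4 were Stard4, a sterol carrier, at 0.89 ± 0.14 (adjusted p = 0.0061), Cyp51 at 0.60 ± 0.15 (adjusted p = 0.0429), Sqle at 0.50 ± 0.13 (adjusted p = 0.0432) and Nsdhl at 0.32 ± 0.08 (adjusted p = 0.0341), the last 3 being enzymes of the pathway. The call of Cyp51 was lost on leaving out any of 12 of the 15 arrays and that of Nsdhl on leaving out any of 8, while that of Stard4 was kept. Cyp51 read 10.40 at 2 h and 8.17 at 24 h in wild type cells and stood at 9.68 with EGTA and 9.13 without CD14 at 24 h. The list's median under EGTA was 0.18 at 2 h and 1.02 at 24 h, and was 0.40 at 2 h and 0.24 at 24 h without CD14.

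**Figure D5:**
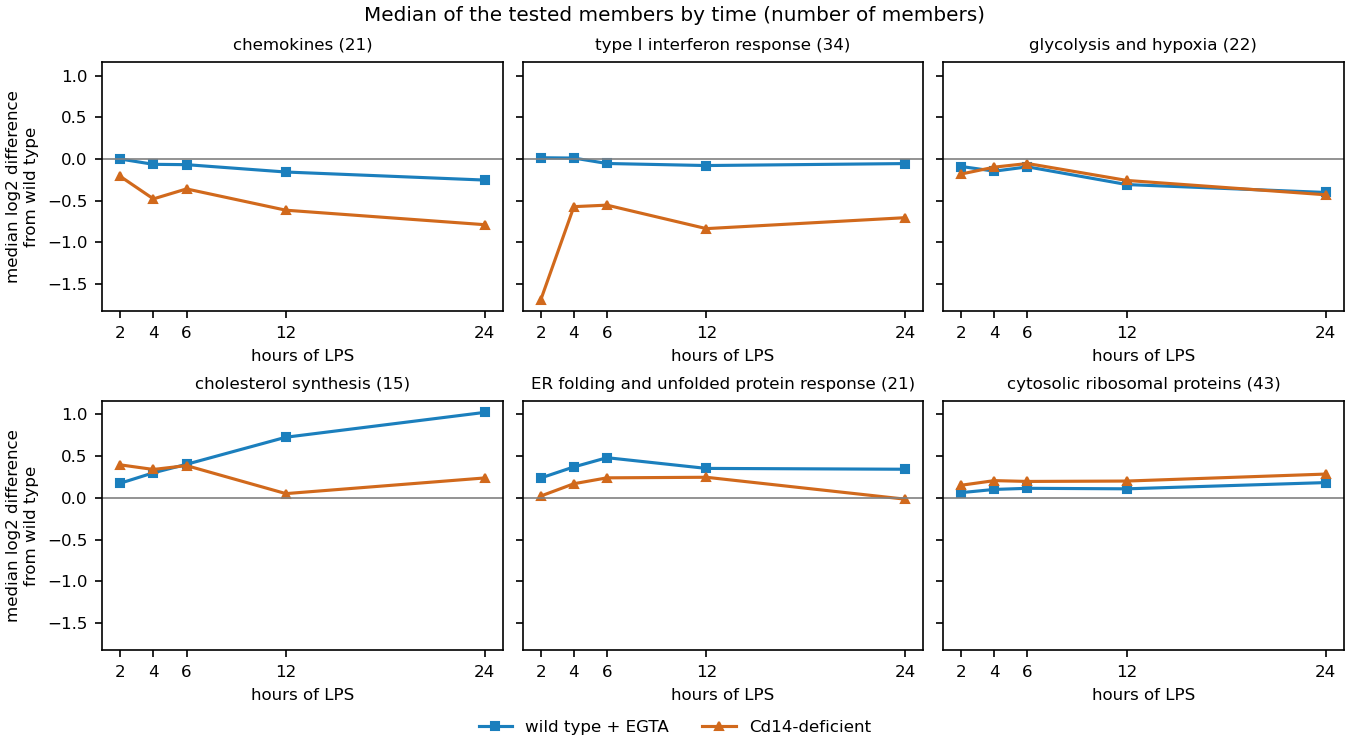
Median log2 difference from the wild type array of the same LPS time over the tested members of 6 gene lists, against hours of LPS, for EGTA (blue) and Cd14-deficient (orange) cells. The interferon curve of Cd14-deficient cells starts at -1.69 at 2 h while that of EGTA stays near 0, the cholesterol curve of EGTA climbs to 1.02, and the curves of glycolysis and hypoxia run together.

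Cytosolic ribosomal protein genes were higher by small amounts. Of 43 tested, 17 were called higher (39.5%, against 3.38% of all genes) and 1 lower (2.33%, against 2.53%), with a median of 0.16. Rps18, at 0.28 ± 0.04 (adjusted p = 0.00428), and Rps6, at 0.33 ± 0.06 (adjusted p = 0.00873), were among them, and none of the 17 exceeded 0.33. The gene called lower was Rpl39, at -0.66. The median stayed above 0 with median centring, at 0.12, and without further scaling, at 0.13.

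Of 18 tested genes of calcium-dependent adhesion and integrins 1 was called lower (5.56%, against 2.53% of all genes) and 3 higher (16.7%, against 3.38%), the third of these being Icam1. The Icam1 call was lost on leaving out any of 12 of the 15 arrays. Tjp1, a tight junction scaffold, fell by 0.90 on the log2 scale (± 0.10, adjusted p = 0.00141), while F11r, a junctional adhesion molecule, rose by 0.99 ± 0.13 (adjusted p = 0.00251) and the integrin chain gene Itgal by 0.79 ± 0.12 (adjusted p = 0.00428). A second, dimmer probe set of F11r went the other way, at -0.73, and F11r did not pass when probe sets were averaged. In Src, Syk and PLCγ signalling, 2 of 15 tested genes were called higher (13.3%, against 3.38% of all genes). They were the Src family kinase gene Fgr at 0.58 ± 0.10 (adjusted p = 0.00929) and the phosphatase gene Inpp5d at 0.44 ± 0.08 (adjusted p = 0.0111). For Inpp5d a further, dimmer probe set gave 0.02, so the rise was not seen there. Among LPS receptor and TLR4 adaptor genes, 1 of 9 was called lower (11.1%, against 2.53% of all genes), Cd180, a relative of TLR4, at -0.63 ± 0.12 (adjusted p = 0.0141). Tgfbi, a matrix protein, rose by 0.91 ± 0.13 (adjusted p = 0.00428), and Thbs1, thrombospondin 1, fell by 0.61 on the log2 scale (± 0.14, adjusted p = 0.0265). The Thbs1 call was lost without the wild type array of 4, 6, 12 or 24 h.

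Several further lists are given by their counts, beside 2.53% of all genes called lower and 3.38% called higher. In lists of this size a share rests on 1 or 2 calls. Of 33 tested cell cycle genes 0 were called by limma and the median was 0.27, at 0.01 with EGTA and 0.56 without CD14. In the direct contrast 20 of them were higher in Cd14-deficient than in EGTA-treated cells, as were 1165 of all 6929 tested genes. Among 16 genes of the Atf4 amino acid response, 2 were called higher (12.5%). These were Phgdh, the first enzyme of serine synthesis, at 0.54 ± 0.10 (adjusted p = 0.0108), and Cebpg at 0.26. The other, dimmer probe sets of Cebpg gave 0.04 and 0.05. The list's median was 0.48 with EGTA and -0.01 without CD14. Of 10 tested genes of MHC class II presentation 1 was called higher (10%), Ciita, the master regulator of that class, at 0.38 ± 0.08 (adjusted p = 0.0248). The Ciita call was lost without the wild type array of 2, 4, 6 or 12 h. Of 25 maturation genes, Cd200 was called lower (4%), at -0.36 ± 0.06 (adjusted p = 0.0061), and Icam1 and Relb higher (8%), at 0.32 and 0.28. Among 32 genes of apoptosis and survival, Gadd45g and Cycs were called lower (6.25%), the latter, cytochrome c, at -0.30 ± 0.05 (adjusted p = 0.00551).

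Some called genes stood outside the lists and were picked out after their values were seen. Tnfsf8, the CD30 ligand, and Tnfrsf11b, the decoy receptor osteoprotegerin, fell by 1.07 and 1.02 on the log2 scale, each on 9 of 10 arrays, and the mitotic kinesin gene Kif23 rose by 1.02 on 8 of 10 arrays. Together with genes that moved on all 10 arrays, these make up the calls of at least 2-fold. Dusp10, a phosphatase of stress-activated kinases, fell by 0.96 (± 0.17, adjusted p = 0.0102), with -1.11 under EGTA and -0.81 without CD14. Mdm2, the ubiquitin ligase of p53, fell by 0.82 (± 0.13, adjusted p = 0.00551), and the fatty acid carrier gene Fabp3 by 0.83 (± 0.12, adjusted p = 0.00428). The near-identical heat shock genes Hspa1a and Hspa1b fell by 0.72 each, and their probe sets may read each other's transcripts. Tnfrsf22 and Tnfrsf23, decoy receptors of TRAIL in the mouse, fell by 0.58 and 0.64. On the higher side, Sephs2, which makes selenophosphate, rose by 0.55 ± 0.06 (adjusted p = 0.000882), the amino acid transporter gene Slc38a2 by 0.58 ± 0.07 (adjusted p = 0.00161) and the fatty acid synthase gene Fasn by 0.68 ± 0.14 (adjusted p = 0.0206).

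The 2 ways of inhibition also differed between themselves on called genes. Of the 409, 66 differed between Cd14-deficient and EGTA-treated cells, beside 2166 of all tested genes (31.3%); because the pooled fit counts this gap as error, called genes were selected for a small one and the 2 shares cannot be compared. Among the genes called lower, 24 were lower still without CD14 and 9 lower still with EGTA. Among those called higher, 18 were higher still without CD14 and 15 higher still with EGTA. Over all tested genes 1001 were lower and 1165 higher in Cd14-deficient than in EGTA-treated cells. Rgcc differed between the conditions by -1.62 ± 0.17 (adjusted p = 2e-05), Nts by -1.19 ± 0.14 and Arg1 by -1.17 ± 0.19, all lower without CD14, whereas U90926 differed by 0.73 ± 0.14 (adjusted p = 0.00161), lower with EGTA. For Ccl2 the difference was -0.02, with -1.13 under EGTA and -1.15 without CD14, and for Penk -0.12. The metal-responsive genes Mt1 and Mt2 differed from wild type by -1.35 each with EGTA and by -0.04 and -0.26 without CD14, and neither was called in the pooled contrast.

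No gene changed its pooled difference between early (2, 4 and 6 h) and late (12 and 24 h) times by limma at an adjusted p of 0.05, although 316 of the 6929 had an unadjusted p under 0.05. For Nos2 the mean was -1.62 early and -2.99 late, for Ccl7 -2.08 and -2.53, and for Herpud1 1.33 and 0.90. Comparing the difference under LPS with that without LPS, 3 of 7056 genes passed (0.0425%), Atf3, Rpl39 and Klk1b21, with a single array per condition without LPS. Of the 175 genes called lower, 57 (32.6%) were also lower by a mean of at least 0.3 without LPS, as were 744 of all tested genes (10.7%).

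Markers of other cells showed few calls. Granulocyte markers had 0 of 14 called and a median of 0.17, at 0.01 with EGTA and 0.44 without CD14, with S100a8 at 0.16 and 0.77 in the same order. Their summed intensity was 19739 to 41956 in wild type, 18970 to 46895 with EGTA and 29583 to 45411 without CD14. Dendritic cell markers had 0 of 12 called and a median of 0.17. All 5 tested mast cell and basophil markers had a pooled difference below 0, with a median of -0.44 under LPS and -0.51 without LPS. Of these 1 was called lower (20%, against 2.53% of all genes), Cpa3, a mast cell protease, at -0.49 ± 0.08 (adjusted p = 0.00903). Mcpt8 at -0.48 and Gata2 at -0.29 did not pass. Their summed intensity was 1418 to 3089 in wild type, 1327 to 2623 with EGTA and 964 to 1983 without CD14. The 3 tested plasmacytoid dendritic cell markers, Bst2, Tcf4 and Tlr7, had medians of -0.07 with EGTA and -0.44 without CD14, where the median was -0.83 at 2 h. None of the 3 passed in the pooled contrast. In the direct contrast all 3 were lower in Cd14-deficient than in EGTA-treated cells, as were 1001 of all 6929 tested genes. T cell and natural killer, B cell, erythroid, B16 melanoma and stromal lists had 1, 2, 1, 1 and 4 members bright enough to test, of which 0 were called by limma. The part of these markers in the results was not tested.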

How the data were processed

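RNA of each sample was read on 1 Affymetrix array. The authors deposited MAS5 signal intensity values per probe set, per the submitters' processing notes. The software version and target intensity were not given in the sources used here. The number of arrays, not a read depth, limits the precision. Here the deposited intensities were quantile-normalised over the 18 arrays and then turned into log2(value + 16), a scale that understates changes of dim genes. Of 22690 probe sets, 20393 name 1 gene, 691 several and 1606 none, and 20364 matched RefSeq. The brightest probe set stood for each of 12394 genes. The 6929 genes above the array median on at least 2 of the 15 arrays were tested, so a gene may have passed through the group where it is high.

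Differences are limma fits (lmFit and eBayes with an intensity trend, limma 3.58.1 in R 4.3.3) with LPS time as a block and p adjusted by Benjamini-Hochberg over all tested genes. The pooled fit has 9 residual degrees of freedom. Lists were described by counts and medians with Python 3.11.15, and the scripts were tested on simulated data. No 2 arrays held identical values. Named were Cd14, genes of the pathway, the 12 largest falls and rises shared by all 10 arrays, the 3 members of smallest p in each list, and the largest differences between conditions or periods, with others marked as chosen later. The members and lists were chosen with earlier results of these data known.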

Additional observations from a re-analysis of the deposited data

Results flagged for a closer look

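Examined were 155 groups of values, namely the array differences of each named gene and the quality measures of each condition's arrays. Of these, 10 held a single array far from the rest, all of them gene differences. The cutoff flags about 1 in 20 groups of independent values. Because the differences of a gene share wild type arrays, the 10 cannot be set against that rate. On the 2 h EGTA array Il2 differed from wild type by -1.99, against -0.29 to 0.29 on the other inhibited arrays, and this was the time at which the gene was well above its level without LPS. On the 2 h Cd14-deficient array Irf7 differed by -2.39 (others -1.004 to -0.015), the interferon-induced GTPase gene Igtp by -1.86 (others -0.99 to -0.03) and the calcineurin subunit gene Ppp3r1 by -0.21 (others 0.08 to 0.31).

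On the 24 h Cd14-deficient array Il6 differed by -1.09 (others -0.32 to -0.02), Hk2 by -0.85 (others -0.42 to -0.19) and the granulocyte gene S100a9 by 1.92 (others 0.13 to 0.78). On the 24 h EGTA array the prostaglandin receptor gene Ptger4 differed by 0.047 (others 0.26 to 0.49) and Tlr7 by 0.40 (others -0.63 to -0.11). On the 12 h Cd14-deficient array Kdr differed by -1.08 (others -0.63 to -0.19).

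In 3 genes the pooled difference under LPS differed from that without LPS by limma. The gap was -1.20 for Atf3 (adjusted p = 0.0261), -2.04 for Rpl39 (adjusted p = 0.0261) and 3.10 for Klk1b21 (adjusted p = 0.0489). Each rests on 1 array per condition without LPS. There Rpl39 read 6.53 in wild type against 8.08 with EGTA and 7.76 without CD14, and Klk1b21 read 8.74 against 6.39 and 6.12.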

How the results depend on the processing

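The number of genes called in the pooled contrast was 409, with 175 lower and 234 higher. It became 66 (49 and 17) with no further scaling, 261 (132 higher) with no filter on dim genes, 1359 (615 and 744) with the 3 conditions in 1 fit, 8 (4 and 4) with no time block and 5 (3 and 2) with condition as a random block, and 154 were higher with median centring. With EGTA arrays alone set against wild type 1022 passed (462 and 560), and with Cd14-deficient arrays alone set against wild type 1870 (793 and 1077). Leaving out each array in turn gave 80 to 450 calls, 40 to 206 lower and 39 to 244 higher. Leaving out a time gave 297 (141 and 156) for 2 h and 187 (80 and 107) for 24 h. It gave 61 (34 and 27) for 4 h, 64 (35 and 29) for 6 h and 60 (25 and 35) for 12 h. Each of these fits held fewer arrays. Between Cd14-deficient and EGTA cells 752 genes were higher with median centring, and 1909 were lower and 262 higher with no further scaling. The 3 calls of the contrast of LPS with no LPS became 1 (1 lower, 0 higher) with median centring and 0 (0 and 0) with no further scaling; 0 were higher with a pseudocount of 64 or no intensity trend, and 1 was lower without the unstimulated EGTA array. The cause of these changes was not tested. No value of the 68 called genes that were followed singly changed sign in an alternative fit that held the gene. The other called genes were not followed. Values of named genes, medians of lists and counts of calls of at least 2-fold were also compared under the alternatives. Of these, 4181 kept their call or size, 728 lost the call, 138 gained it and 25 moved. The 25 were medians or counts, not values of named genes. Without the 2 EGTA arrays of lower RNA integrity 316 genes passed. No paired analysis was possible because the labels give no replicate numbers, and LPS time is already the block. Values near background are the least certain.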
